A study of Mus musculus with 7 samples.

Results

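The genes described here are 10 components of the inflammasome and NOD-like receptor pathways, Nlrp3, Nlrc4, Naip5, Aim2, Nod1, Nod2, Pycard, Casp1, Casp4 and Gsdmd. They were chosen by gene symbol, with earlier results of these data known, and each symbol matched 1 of the 28666 genes in the expression table. The cells were mouse bone marrow-derived dendritic cells (BMDCs), grown for 7 days in GM-CSF and IL-4 from the marrow of mice aged 6 to 8 weeks. They shared a Transwell with MC38, a colon carcinoma line of the mouse, and the glutamine antagonist DON was present for 24 h at 5 μM. Immature and mature BMDCs were then separated by flow sorting, and bulk RNA was sequenced from 3 Immature and 4 Mature libraries. Both groups therefore share the culture, the tumor cells and the drug, and differ in the maturation state on which they were sorted, so the comparison is between states and not between treated and untreated cells. Same-numbered libraries are not tied to the same animal or culture by the labels, which also do not say whether the libraries of a group are separate cultures or animals. The study describes its experiments in general as biologically independent, without naming these libraries. The p-values measure the spread between these libraries. In bulk RNA, fewer cells of a type and less RNA per cell cannot be told apart.

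Inflammasomes are cytosolic complexes that form when a sensor detects a microbial product or cell damage. The sensor recruits the adaptor ASC, encoded by Pycard, and activates caspase-1, which matures IL-1β and IL-18 and cleaves gasdermin D into a protein that opens pores in the plasma membrane. NOD1 and NOD2 belong to the same receptor family but signal through the kinase RIPK2 to NF-κB and do not need ASC. In dendritic cells these routes link the detection of microbes to cytokine release.

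The genes lie on separate chromosomes except for one pair. Casp1 (chr9:5298508-5307290, plus strand) and Casp4 (chr9:5308828-5336783, plus strand) are neighbours, with 1537 bases between them. Nlrp3 lies at chr11:59541568-59566956 (plus), Nlrc4 at chr17:74425438-74459142 (minus), Naip5 at chr13:100211739-100246323 (minus) and Aim2 at chr1:173350879-173466040 (plus). Nod1 lies at chr6:54923949-54972612 (minus), Nod2 at chr8:88647315-88688474 (plus), Pycard at chr7:127989708-127993867 (minus) and Gsdmd at chr15:75862327-75867408 (plus). All coordinates are in mouse build GRCm38.

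Promoter windows from RefSeq (GRCm38.p6), each from 250 bases before to 50 bases after a start site, were matched for 9 of the 10 genes, all but Gsdmd. The windows of the genes with the clearest differences between the groups, Nlrp3, Nlrc4 and Nod2, are shown with that of Casp4, which holds the most matches to the NF-kappa B consensus. Capitals mark matches to that consensus on either strand, and overlapping matches are merged. Sequences run 5′ to 3′ on the strand of the gene, at chr11:59541319-59541618 for Nlrp3, chr9:5308599-5308898 for Casp4, chr17:74459059-74459358 for Nlrc4 and chr8:88647097-88647396 for Nod2.
Nlrp3: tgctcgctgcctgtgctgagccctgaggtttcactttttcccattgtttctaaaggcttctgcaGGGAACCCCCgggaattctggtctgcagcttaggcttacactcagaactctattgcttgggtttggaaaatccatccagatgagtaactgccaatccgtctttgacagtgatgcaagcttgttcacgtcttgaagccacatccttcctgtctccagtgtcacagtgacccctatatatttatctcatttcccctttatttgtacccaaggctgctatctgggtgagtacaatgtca
Casp4: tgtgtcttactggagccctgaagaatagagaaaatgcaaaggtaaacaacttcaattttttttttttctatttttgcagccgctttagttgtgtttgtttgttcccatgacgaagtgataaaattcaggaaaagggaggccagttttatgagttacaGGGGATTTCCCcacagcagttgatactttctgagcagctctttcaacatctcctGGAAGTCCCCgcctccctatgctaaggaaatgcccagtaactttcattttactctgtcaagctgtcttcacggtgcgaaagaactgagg
Nlrc4: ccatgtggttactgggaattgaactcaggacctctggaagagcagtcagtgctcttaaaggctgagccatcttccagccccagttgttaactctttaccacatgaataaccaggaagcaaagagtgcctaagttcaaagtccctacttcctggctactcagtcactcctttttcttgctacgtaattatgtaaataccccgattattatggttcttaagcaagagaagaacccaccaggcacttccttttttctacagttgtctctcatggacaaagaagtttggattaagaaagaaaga
Nod2: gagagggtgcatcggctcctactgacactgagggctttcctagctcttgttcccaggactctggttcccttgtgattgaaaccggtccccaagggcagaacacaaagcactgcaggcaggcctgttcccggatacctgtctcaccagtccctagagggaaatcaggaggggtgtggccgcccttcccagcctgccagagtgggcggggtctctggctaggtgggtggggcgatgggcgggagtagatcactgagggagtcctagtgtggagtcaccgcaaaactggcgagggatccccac
The NF-kappa B consensus was matched in 3 of the 9 windows, against 8.46% of 32851 promoter windows in the table. The matches lay at positions -186 to -177 in Nlrp3, at -93 to -83 and -39 to -30 in Casp4, and at -218 to -209 in Naip5. Neither TGANTCA, the AP-1 motif, nor GAAANNGAA, the core of the interferon-stimulated response element, was found in any of the 9 windows, and these letters occur in 7.81% and 8.56% of all windows. GAGGAAGT, the core recognised by PU.1, was found in 2 of the 9, Pycard and Aim2, against 3.20% of all windows. A match is a description of the letters. The window of Aim2 starts from a site 69725 bases from the start of the gene in the expression table. For Naip5, which has an NF-kappa B match, this distance is 1013 bases.

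Sequencing depth was 54846746 to 67973086 counts per library, and each of the 10 genes had between 224 and 12413 counts in every library. Of 17 dendritic cell markers, 9 were higher in Mature BMDCs by the criteria given below, among them Ccr7, Cd80, Cd86 and Fscn1. By the same criteria 2 were lower, Clec9a (log2 fold change -2.17) and Cd209a (-3.54). Over all genes tested, 13.2% were higher and 9.95% lower. The study marks mature dendritic cells elsewhere by CD80 and CD86, so higher Cd80 and Cd86 may only restate the sort. Itgax, which encodes CD11c, was at 874 CPM or more in every library (CPM gives a gene's counts relative to the TMM-scaled total of its library). Its level was lower in Mature libraries, at 874 to 1144 CPM against 1288 to 1464 in Immature libraries (-0.41, adjusted p = 0.0124). Xcr1 was at most 0.605 CPM in any library, and Cd209a had no counts in Mature replicates 1 and 3. Of 13 tested macrophage markers, 11 were lower in Mature BMDCs and none was higher, and the summed level of the list went from 2686 to 2796 CPM in the Immature libraries to 520 to 630 in the Mature libraries. Neutrophil markers summed to 374 to 387 CPM in Immature and 57.5 to 88.8 in Mature libraries. Mmp8 made up most of it, at 354 to 367 CPM in Immature and 34.7 to 59.2 in Mature libraries. By both criteria 3 of 7 tested neutrophil markers were lower, Mmp8, Csf3r (-1.76) and S100a8 (-1.33), and none was higher. S100a8 was low and its groups overlapped, at 1.09 to 2.29 CPM in Immature and 0.423 to 1.36 in Mature libraries. Cxcr2 was higher in Mature BMDCs by the adjusted p only (0.91, adjusted p = 0.00184), and Camp, Ltf, Ngp and Mpo were at or near 0. Mast cell and basophil markers summed to at most 2.72 CPM in any library, lymphocyte markers to at most 1.97 and epithelial markers, mainly Cdh1, to 59.4 to 77.5. Heart muscle transcripts summed to at most 5.61 CPM in the Immature libraries, 26.9 in Mature replicate 1 and 708 to 834 in Mature replicates 2 to 4. The part of these cells in the results below was not tested.

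The 10 genes did not all go the same way between the groups. Nod2 was 3.73-fold higher in Mature BMDCs, Nlrp3 fell to 24.9% of its Immature level and Nlrc4 to 44.2%, and these 3 met both criteria, an adjusted p under 0.05 and a log2 fold change of at least 1 in size. Over all 17461 genes tested, 23.1% met them, 13.2% higher and 9.95% lower in Mature BMDCs. Casp4 and Aim2 were also higher and Pycard lower at an adjusted p under 0.05, which makes 6 of the 10, with 3 in each direction. That p alone was met by 46.1% of all genes, 23.2% higher and 22.9% lower. For 8 of the 10 genes no Mature library fell within the Immature range or the reverse, against 52.1% of all genes, and Casp1 and Nod1 were the exceptions. The median log2 fold change was -0.22 over the 10 genes and 0.05 over all genes tested.

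**Figure D1:**
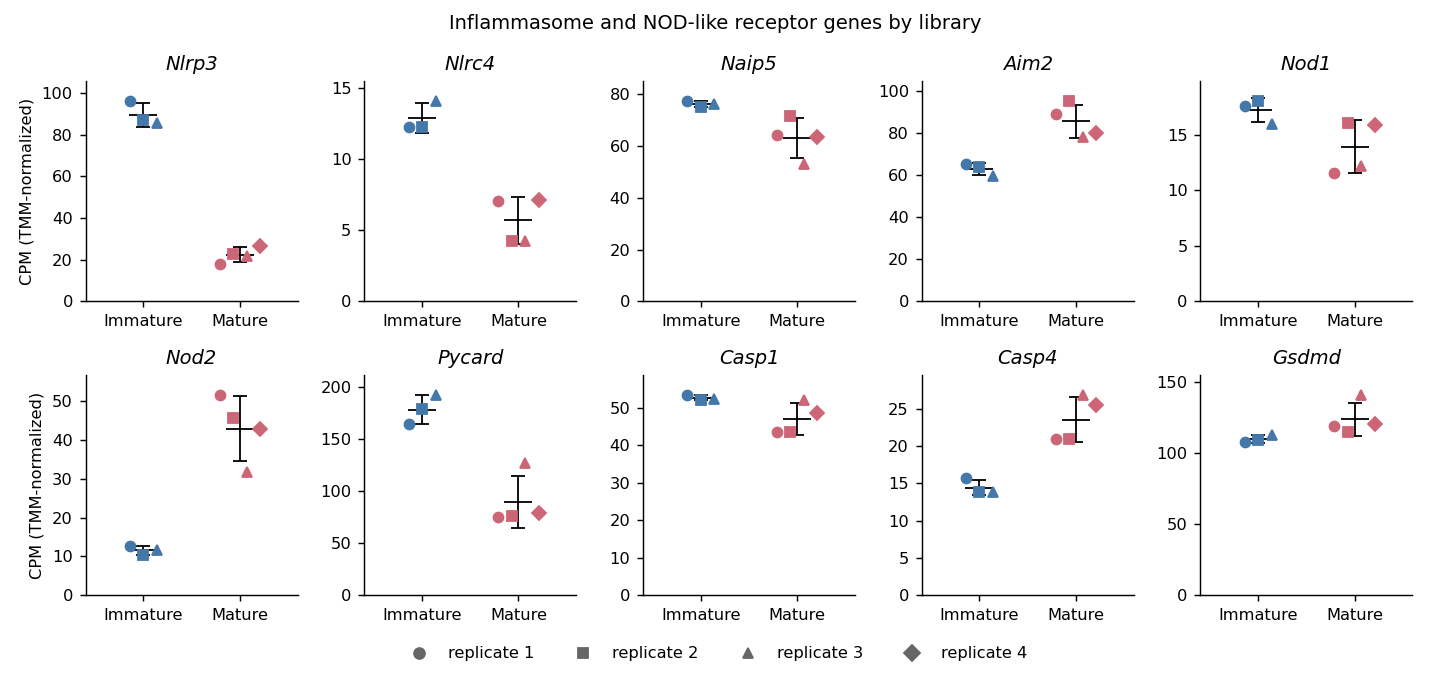
Level of each of the 10 genes in each library, in CPM (TMM-normalized, vertical axes from 0), for 3 Immature (blue) and 4 Mature (red) libraries, with the mean and SD in black and the marker shape giving the replicate. Nlrp3 and Nlrc4 sit lower and Nod2 higher in every Mature library, and Mature replicate 3 stands above the other Mature libraries for Pycard.

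Nlrp3 encodes the sensor that responds to potassium efflux and other signs of cell damage. Its level was 96.3, 87.2 and 85.7 CPM in Immature replicates 1 to 3 and 18.1, 22.7, 21.9 and 26.8 CPM in Mature replicates 1 to 4. Every Mature library lay far below every Immature library. The Immature mean was 89.7 ± 5.71 CPM (SD, n = 3) and the Mature mean 22.4 ± 3.59 CPM (SD, n = 4). The log2 fold change was -2.01 (SE 0.13, adjusted p = 4.63e-06, edgeR quasi-likelihood test with Benjamini-Hochberg adjustment, as for all adjusted p-values here). Its 95% interval ran from -2.30 to -1.71. Nlrp3 is the gene whose promoter window, shown above, holds 1 stretch matching the NF-kappa B consensus.

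Nlrc4 and Naip5 act together. NAIP proteins bind bacterial flagellin or secretion system proteins, and NLRC4 assembles the inflammasome with them. Nlrc4 was measured at 12.3, 12.2 and 14.1 CPM in the Immature libraries and at 7.06, 4.26, 4.24 and 7.13 CPM in the Mature libraries. The groups did not overlap, and the Mature libraries fell into a lower pair, replicates 2 and 3, and a higher pair. The log2 fold change was -1.18 (SE 0.22, adjusted p = 0.0025), with a 95% interval from -1.68 to -0.67. A processed pseudogene, CT033749.1, lies within Nlrc4 on the same strand, with mean counts of 6.33 in Immature and 16.5 in Mature libraries.

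Naip5 was measured at 77.3, 74.9 and 76.3 CPM in the Immature and 64.4, 71.7, 53.1 and 63.5 CPM in the Mature libraries. All 4 Mature libraries were below the Immature ones, but the difference of -0.27 on the log2 scale (SE 0.10) did not pass the test (adjusted p = 0.0627). Its 95% interval, which is not adjusted for the number of genes, ran from -0.51 to -0.03. The Naip genes are related neighbours among which reads might be split. This was not tested, so the level of a single one is taken as uncertain. Naip1, Naip2, Naip5 and Naip6 summed to 305 to 338 CPM in Immature and 160 to 234 CPM in Mature libraries, without overlap.

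Aim2, a sensor of cytosolic DNA, was higher in Mature BMDCs. It was measured at 65.1, 63.7 and 59.4 CPM in the Immature and 88.9, 95.0, 78.1 and 80.0 CPM in the Mature libraries. Each Mature library was above each Immature library, by a modest margin. The log2 fold change was 0.45 (SE 0.09, adjusted p = 0.0043), with a 95% interval from 0.23 to 0.66. Cadm3 overlaps Aim2 on the opposite strand, with mean counts of 24.3 in Immature and 88.3 in Mature libraries. The library kit marks strand, but the setting used for counting is not given in the sources used here.

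The receptors for peptidoglycan fragments differed from each other. Nod2, the receptor for muramyl dipeptide, was measured at 12.7, 10.2 and 11.6 CPM in the Immature and 51.7, 45.8, 31.7 and 42.8 CPM in the Mature libraries. Even Mature replicate 3, the lowest of its group, was well above all Immature libraries. Its log2 fold change was 1.898 (SE 0.17, adjusted p = 3.47e-05), with a 95% interval from 1.501 to 2.29. Nod1, the receptor for diaminopimelic acid-containing peptides, was measured at 17.6, 18.0 and 16.02 CPM in the Immature and 11.6, 16.1, 12.2 and 15.8 CPM in the Mature libraries. The groups overlapped, and the difference of -0.30 (SE 0.14) did not pass the test (adjusted p = 0.117). Its 95% interval ran from -0.63 to 0.02.

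Pycard encodes ASC, the adaptor that joins several sensors to caspase-1. It was measured at 164, 178 and 192 CPM in the Immature and 75.3, 76.1, 127 and 78.8 CPM in the Mature libraries. The groups did not overlap, and Mature replicate 3 lay well above the other Mature libraries, which were close together. The log2 fold change was -0.998 (SE 0.19, adjusted p = 0.00239), just short of the fold criterion, with a 95% interval from -1.42 to -0.57. Without Mature replicate 3 it was -1.19 and met both criteria. Gm45205, a transcript on the opposite strand, overlaps Pycard, with mean counts of 32.7 in Immature and 14.8 in Mature libraries.

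The caspases are neighbours in the genome with different values. Casp4 encodes caspase-11 in the mouse, which binds bacterial lipopolysaccharide in the cytosol. It was measured at 15.7, 13.9 and 13.8 CPM in the Immature and 20.96, 21.01, 26.9 and 25.5 CPM in the Mature libraries. Every Mature library was higher, with a log2 fold change of 0.71 (SE 0.13, adjusted p = 0.00178) and a 95% interval from 0.42 to 0.99. Casp1 was measured at 53.4, 52.1 and 52.4 CPM in the Immature and 43.6, 43.6, 52.2 and 48.7 CPM in the Mature libraries. Mature replicate 3 reached the Immature range, and the difference of -0.16 (SE 0.09, 95% interval -0.37 to 0.04) did not pass the test (adjusted p = 0.17). Without Mature replicate 3 it was -0.19 and passed (adjusted p = 0.0243).

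Gsdmd encodes gasdermin D, the pore-forming protein that both caspases cleave. It was measured at 107, 109 and 113 CPM in the Immature and 119, 114, 141 and 120.4 CPM in the Mature libraries. The Mature libraries lay just above the Immature ones, with replicate 3 the highest. The difference of 0.17 (SE 0.09, 95% interval -0.03 to 0.38) did not pass the test (adjusted p = 0.146). It passed in 5 of the 16 alternatives described below. With edgeR it passed without Mature replicate 3 (0.13, adjusted p = 0.0332) and with genes of at least 5 FPKM in 3 libraries (0.23, adjusted p = 0.0261). It also passed when libraries were scaled by their totals alone (0.28, adjusted p = 0.0141), a scaling that moves the median of all genes to 0.16. With limma it passed on log2(FPKM + 1) (0.27, adjusted p = 0.0072) and on log2(FPKM + 0.1) (0.28, adjusted p = 0.00753).

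**Figure D2:**
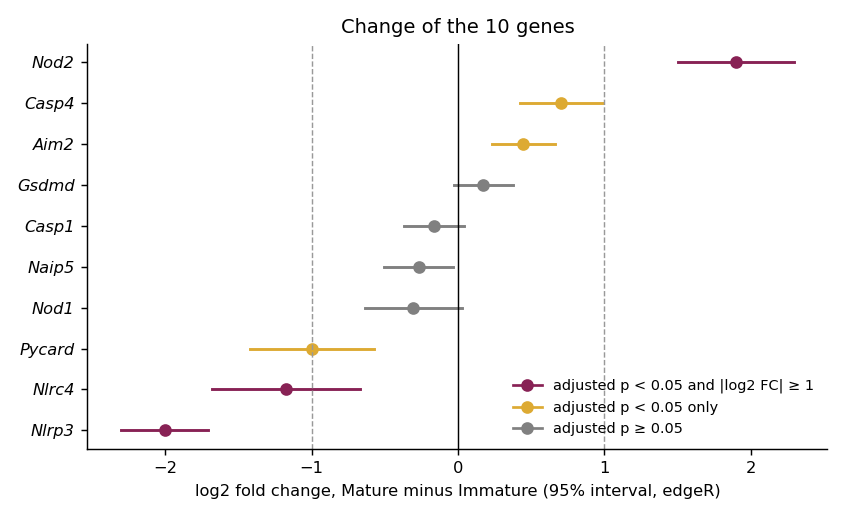
Log2 fold change, Mature minus Immature, of each of the 10 genes (points) with its 95% interval (lines) from edgeR. Dashed lines mark the fold criterion. Nod2, Nlrc4 and Nlrp3 met both criteria, Casp4, Aim2 and Pycard only the adjusted p, and the intervals of Gsdmd, Casp1 and Nod1 include 0. The interval of Naip5 lies below 0, but its adjusted p was 0.0627.

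Levels of different genes were compared per transcript length, in FPKM, which divides fragments by both length and library total. In Immature BMDCs, Pycard (mean 41.2 FPKM) and Gsdmd (40.5) were highest and their libraries overlapped. Nlrp3 followed at 19.4, then Aim2 (15.7) and Casp1 (14.7), which overlapped, and Naip5 at 12.9. The low genes were Casp4 (3.41) and Nod1 (2.98), which overlapped, Nlrc4 (2.34) and Nod2 (2.01). In Mature BMDCs, Gsdmd stood alone at 49.1 FPKM, and Aim2 (23.2) and Pycard (22.03) overlapped. A run of neighbours that each overlapped the next followed, from Casp1 (14.1) through Naip5 (11.5), Nod2 (8.16) and Casp4 (5.98) to Nlrp3 (5.21). Nod1 (2.61) and Nlrc4 (1.12) were lowest. Nlrp3 thus moved from place 3 to place 8 and Nod2 from place 10 to place 6 of the 10.

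**Figure D3:**
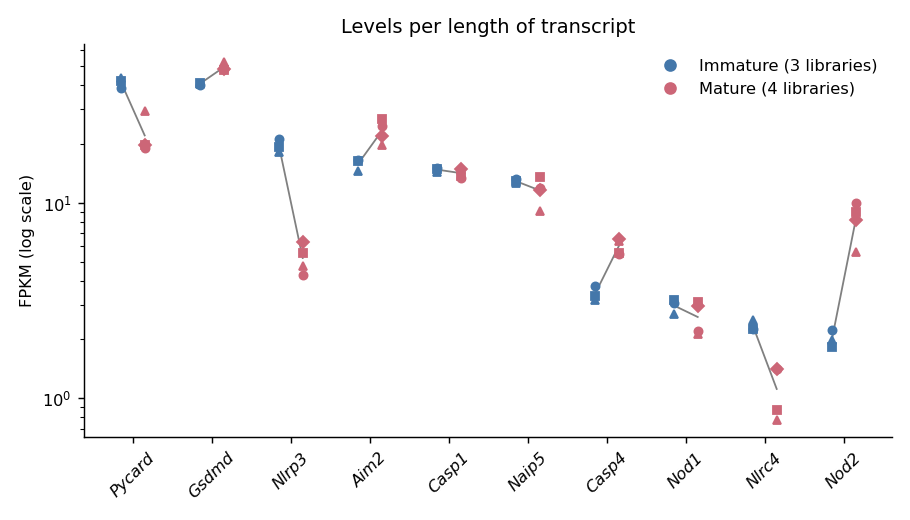
FPKM (log axis) of the 10 genes in each Immature (blue) and Mature (red) library, ordered by the Immature mean, with lines joining the group means. Pycard and Gsdmd are highest in Immature BMDCs. From the Immature to the Mature mean, the line of Nlrp3 falls and that of Nod2 rises.

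Ratios within a library compare genes of the same step, and the 4 ratios were chosen after the values were seen. The ratio of Nod2 to Nod1 in FPKM was 0.572 to 0.736 in Immature and 2.62 to 4.52 in Mature libraries. The ratio of Aim2 to Nlrp3 was 0.783 to 0.846 and 3.46 to 5.70. Both ratios were below 1 in every Immature library and above 1 in every Mature library. The ratio of Casp4 to Casp1 was 0.222 to 0.248 and 0.406 to 0.442, and that of Naip5 to Nlrc4 was 5.02 to 5.85 and 8.26 to 15.6. In none of the 4 did the groups overlap. Each gave p = 0.0571 in a two-sided exact permutation test (0.0571 after adjustment over the 4), the smallest that 3 against 4 libraries allow. Ratios without overlap can give no other value, so this p adds nothing to the ranges.

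Mature replicate 3 differed from the other Mature libraries along transcript length. Its level relative to their mean was highest for Pycard (0.73 on the log2 scale), then Casp4 and Gsdmd (both 0.26) and Casp1 (0.20). Pycard departs from the order by length. Its longest annotated transcript has 3800 bases, near the median of 3910.5 for the 10 genes. Aim2, with 2839 bases, was at -0.17. The relative level was lowest for Nod2 (-0.56), Nlrc4 (-0.54) and Naip5 (-0.32). For Nlrc4, Mature replicate 2 was about as low, at 4.26 CPM against 4.24 in replicate 3. Against the longest annotated transcript, Spearman's rho was -0.76 over the 10 genes and -0.43 over 17051 genes, which all come from the same libraries and are not replicates. The length was then also taken from protein-coding transcripts only, a choice made after the first values were seen, and rho was -0.79 over the 10 genes and -0.59 over 13646 genes. The part of this in the results was not tested. Without this library, 9 of the 10 genes had an adjusted p under 0.05, against 57.4% of all genes in that fit, with Casp1, Gsdmd and Naip5 (-0.17, adjusted p = 0.0309) added.

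**Figure D4:**
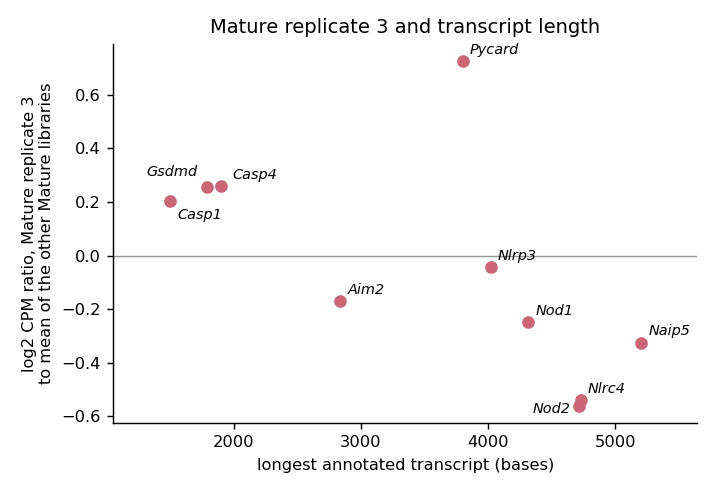
Log2 ratio of the CPM in Mature replicate 3 over the average of Mature replicates 1, 2 and 4 (vertical) against the longest annotated transcript in bases (horizontal) for the 10 genes. The short transcripts of Casp1, Casp4 and Gsdmd lie above 0 and Nlrc4, Nod2 and Naip5 below it. Pycard, at 0.73, is highest, with a longer transcript of 3800 bases.

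Mature replicate 1, the Mature library with the fewest heart muscle transcripts, was also set alone against the 3 Immature libraries, taking its spread to be like theirs. Nlrp3 (-2.29), Nod2 (2.19) and Pycard (-1.22) then met both criteria. Nlrc4 had a log2 fold change of -0.84 and missed the fold criterion. Nod1, at -0.55, had an adjusted p of 0.0126, and 9 of the 10 genes had an adjusted p under 0.05, against 42.6% of all genes in that fit.

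Genes around the 10 were read from 5 lists, and their counts stand beside the 23.1% of all genes that met both criteria (13.2% higher, 9.95% lower) and the 46.1% with an adjusted p under 0.05. Of 10 other NOD-like receptors tested, 1 was higher and 4 were lower in Mature BMDCs by both criteria (50%), and 7 had an adjusted p under 0.05. The median log2 fold change was -0.66. Nlrp1b (-2.49, adjusted p = 2.4e-05), Naip1 (-2.46, adjusted p = 8.68e-06), Nlrc3 (-1.61, adjusted p = 0.0118) and Nlrp1a (-1.25, adjusted p = 0.000278) fell. Nlrc3 was low in both groups, with means of 1.34 CPM in Immature and 0.438 in Mature libraries. Naip1 went from 7.19 to 1.30 CPM, and the uncertainty of single Naip genes given above holds for it. Nlrp10 rose from a mean of 2.64 to 9.25 CPM (1.81, adjusted p = 0.000295). Of 11 pyrin and AIM2-like genes, 1 was higher and 3 lower (36.4%), with a median of -0.18, and 7 had an adjusted p under 0.05. Mefv, which encodes pyrin, rose from 4.26 to 19.4 CPM (2.19, adjusted p = 2.82e-06). Ifi204 (-2.19), Ifi207 (-2.02) and Ifi203 (-1.69), relatives of Aim2 in the same family, fell. Ifi205, another relative, was higher like Aim2 (0.81, adjusted p = 0.00703), short of the fold criterion. At an adjusted p under 0.05 alone, 2 genes of the list were higher and 5 lower.

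Among 22 tested genes of NOD1 and NOD2 signalling, which include transporters of their ligands, 3 were higher and none lower by both criteria. This is 13.6%, below the 23.1% of all genes. At an adjusted p under 0.05 alone 7 were higher and 2 lower, 9 in all. Slc15a2, a peptide transporter, rose from 2.73 to 13.2 CPM (2.27, adjusted p = 4.76e-06). The ubiquitin ligases Birc2 (2.01, adjusted p = 8.05e-07) and Birc3 (1.15, adjusted p = 4.64e-05) rose too. Ripk2, the kinase next to both receptors and named here after its value was seen, had a log2 fold change of -0.40 (adjusted p = 0.00587). The median of the list was 0.21.

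Among 20 inflammasome triggers and regulators tested, 1 was higher and 4 were lower, with a median of -0.38. This is 25% of the list, near the 23.1% of all genes, and 5 were higher and 10 lower at an adjusted p under 0.05. P2rx7, the ATP-gated channel that triggers NLRP3, fell from 46.9 to 9.57 CPM (-2.29, adjusted p = 2.47e-05). Tlr4 (-1.91) and Cd14 (-1.74), receptors for lipopolysaccharide, and Fbxl2 (-1.31) fell as well. Cd14 is also one of the macrophage markers above. Gbp5, a guanylate-binding protein, rose from 26.7 to 119 CPM (2.16, adjusted p = 1.51e-06).

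Among 22 products, pyroptosis genes and cell death partners tested, 3 were higher and 4 lower (31.8%, against 23.1% of all genes), with a median of -0.30. At an adjusted p under 0.05, 5 were higher and 10 lower. Il18 rose from 1.37 to 5.76 CPM (2.07, adjusted p = 0.000586) and Serpinb1a, an inhibitor of inflammatory proteases, from 3.82 to 8.35 CPM (1.13, adjusted p = 0.000815). Il1b rose by 1.36 (adjusted p = 0.0125), but the groups overlapped. It was measured at 21.7, 20.97 and 33.9 CPM in the Immature and 29.5, 69.4, 88.4 and 75.0 CPM in the Mature libraries, with Mature replicate 1 inside the Immature range. The necroptosis genes Ripk3 (-1.72, adjusted p = 5.31e-06) and Mlkl (-1.69, adjusted p = 4.02e-06), the IL-18 inhibitor Il18bp (-1.53) and the gasdermin Gsdme (-1.25) fell.

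**Figure D5:**
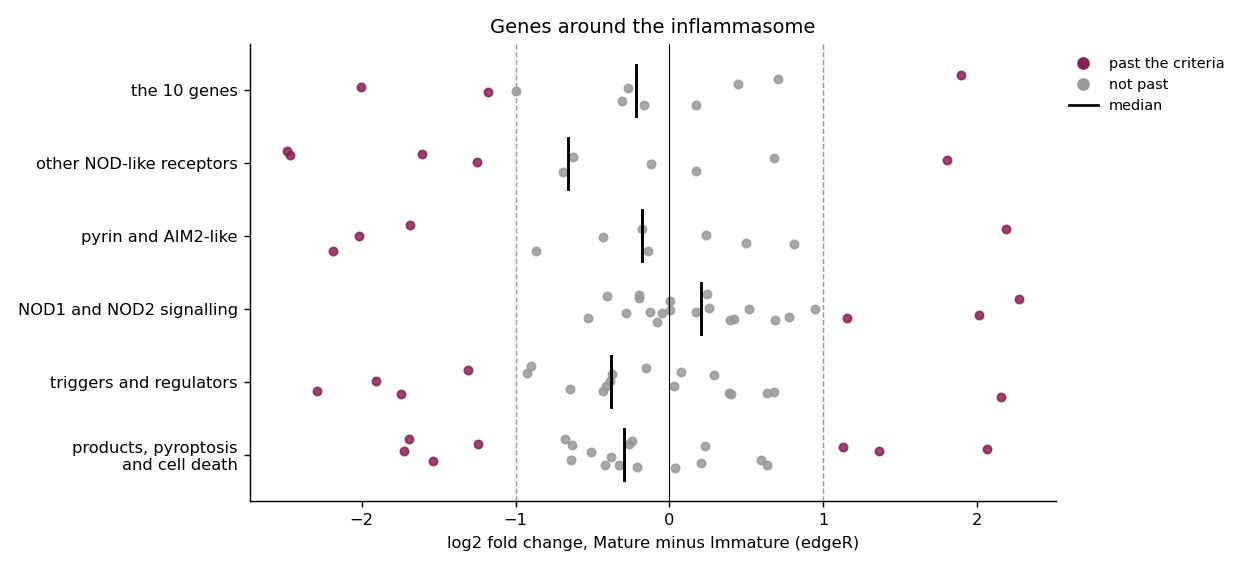
Log2 fold change, Mature minus Immature, of the tested genes of each list (points, spread vertically for clarity), with those past both criteria in purple, the list median as a black bar and the fold criterion as dashed lines. The medians are -0.22 for the 10 genes, -0.66 for other NOD-like receptors and 0.21 for NOD1 and NOD2 signalling.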

How the data were processed

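Counts deposited by the authors are whole numbers for each gene, not normalized. The authors also deposited FPKM values, which scale fragments by gene length and library total, to 2 decimals. The submitters' processing notes name cutadapt 1.9, HISAT2 2.2.1, StringTie 2.1.6, DESeq2 and edgeR, and the build mm9. The deposited coordinates are those of GRCm38: of 28666 gene IDs, 28588 are in GENCODE M21 and 25805 of these have identical coordinates.

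All 28666 genes entered edgeR 4.0.16 in R 4.3.3 with filterByExpr, TMM normalization and the quasi-likelihood test, group being the only term. The p-values were adjusted by Benjamini-Hochberg over the 17461 genes tested. The criteria, an adjusted p under 0.05 and a log2 fold change of at least 1 in size, follow the study's methods. The 95% intervals use the moderated degrees of freedom. CPM uses TMM library sizes. Depth was 54846746 to 67973086 counts per library, and its precision covers counting error only. Alternatives were DESeq2 1.42.0, limma 3.58.1 on log2(FPKM + 1) or log2(FPKM + 0.1), which understates changes of low genes, other scalings and filters, single libraries left out, and a replicate block. The scripts were tested on simulated data.

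All 10 genes are named, with the genes past the criteria in each list, at most 8 a list. The genes, the lists and the heart muscle markers were chosen with earlier results of these data known. The following were chosen after values were seen: the FPKM ratios, and the comparison of Mature replicate 3 with transcript length, for which a second length definition was tried and both are given. Python 3.11.15, pandas 2.3.3, scipy 1.17.1 and matplotlib 3.10.9 were used.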

Additional observations from a re-analysis of the deposited data

Results flagged for a closer look

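Of 34 values compared within the 4 Mature libraries, 2 had 1 library far from the rest by Dixon's criterion, and chance would give about 1.7. Both were Mature replicate 3. Pycard was 126.9 CPM there and 75.3 to 78.8 CPM in the others, a gap of 0.932 of the range. Il18 was 8.13 CPM there and 4.75 to 5.26 CPM in the others, a gap of 0.848 of the range.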

How the results depend on the processing

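Under 16 alternatives, or 15 for Nlrc4 and Nod1, which a filter of at least 5 FPKM in 3 libraries removed, none of the 158 log2 fold changes of the 10 genes reversed, and 11 passed an adjusted p under 0.05 where the reported one did not. The number of the 10 meeting both criteria was 2 to 4, and the number with an adjusted p under 0.05 was 6 to 9. Leaving out 1 library at a time gave 3 to 4 and 6 to 9. Pycard met the fold criterion without Immature replicate 1 (-1.06), Immature replicate 2 (-1.001) or Mature replicate 3 (-1.19). Nlrc4 missed it with limma on log2(FPKM + 1), at -0.67. With the filter of 5 FPKM, 0 of the other NOD-like receptors and 4 of the products and cell death genes met both criteria, and with limma on log2(FPKM + 1) 1 of the other receptors did; these settings test fewer genes or compress low values. Over all genes the count of 4037 became 1525 with that filter, 1768 with limma on log2(FPKM + 1) and 2561 with log2(FPKM + 0.1). With a replicate block the same 3 genes met both criteria (Nlrp3 -2.11, Nlrc4 -1.35, Nod2 1.88), and 3616 genes did in all. Same-numbered libraries correlated in their deviations from the group means by -0.0011 to 0.029, so the numbers were not taken to pair them.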
